A study of Mus musculus with 3 samples.

Results

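Cycling-gene-rich barcodes are droplet barcodes, each meant to hold 1 nucleus of the cornea, in which several genes of mitosis were counted together. A barcode was taken when it held at least 500 genes, at most 5% mitochondrial UMIs (unique molecular identifiers, 1 per captured RNA molecule) and UMIs of at least 4 of the 10 rule genes Mki67, Top2a, Cenpf, Cenpe, Kif11, Aspm, Tpx2, Anln, Knl1 and Bub1b. The summed share of these genes among the UMIs of the barcode also had to be at least 8 times their share over all barcodes of the same library. The rule found 203 barcodes, called members here, among 317975 in all. WT held 88 of them among 96587 barcodes, KO held 7 among 107031 and KO_PBS held 108 among 114357.

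Each library was made from nuclei of frozen whole corneas pooled from 5 mice of 7 weeks. WT corneas came from untreated wild-type mice, KO corneas from untreated mice without Aire, which lets the thymus display tissue antigens and whose loss leads to autoimmune dry eye, and KO_PBS corneas from such mice after 14 days of phosphate-buffered saline. The labels give neither the strain nor the knockout allele, the text of the series gives another age and treatment day than the sample labels followed here, and a lacripep arm named there was not analysed here. There was 1 library per group, so no difference between groups has a replicate check, and the intervals given below, all at 95%, cover counting error only. Mouse, pool, library and group cannot be told apart.

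Total UMIs were 256852883 for WT, 352627863 for KO and 178988562 for KO_PBS. Krt12, the keratin of the corneal epithelium, was counted in every library, at 26121 CPM (counts scaled to a total of 1000000 UMIs) for WT, 13793 for KO and 6205 for KO_PBS. The lens crystallin Cryaa was at 139.6, 50.9 and 1928 CPM in the same order, so that KO_PBS stood apart by its content of lens RNA. Aire gave 15, 27 and 68 UMIs in WT, KO and KO_PBS. Its level was 0.0584 CPM in WT (0.0327 to 0.0963), 0.0766 in KO and 0.380 in KO_PBS (0.295 to 0.482). It was thus highest in a knockout library, and did not check the knockout label. Barcode sequences were shared by 2833 barcodes of WT and KO, 2998 of WT and KO_PBS and 3379 of KO and KO_PBS, but 0 members shared theirs with a member of another library. Scrublet's doublet caller marked 0, 24934 and 10192 barcodes in WT, KO and KO_PBS, and among the members it marked 0, 0 and 4. With 0 marked in WT, the caller gave no check of doublets there, and doublets were not removed.

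As background, a dividing cell copies its DNA in S phase and then builds up the proteins of G2 and mitosis, among them Mki67, which coats mitotic chromosomes, Top2a, which untangles DNA, Cenpf of the kinetochore and Aspm of the spindle poles. In the cornea most division takes place in the basal layer of the epithelium and in the limbus at its rim, whose cells carry Krt5, Krt14, Trp63 and hemidesmosome genes, while the layers above carry Krt12 and Aldh3a1. Many genes of mitosis are held back in resting cells through a promoter element read TTTGAA (the cell cycle genes homology region, CHR), which often lies near CCAAT boxes bound by NF-Y.

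The promoters of the 4 genes that mark these barcodes are shown because they carry both elements. Each window runs from 145 bases before to 15 bases after the RefSeq start, on build GRCm38.p6, with every TTTGAA and CCAAT on either strand in capitals. They lie at chr7:135716365-135716524 (minus strand) for Mki67, chr11:99024175-99024334 (minus strand) for Top2a, chr1:189688072-189688231 (minus strand) for Cenpf and chr1:139454628-139454787 (plus strand) for Aspm.
Mki67: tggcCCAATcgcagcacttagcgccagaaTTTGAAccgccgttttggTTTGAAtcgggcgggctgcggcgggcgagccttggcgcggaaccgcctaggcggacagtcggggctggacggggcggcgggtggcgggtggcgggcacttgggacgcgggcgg
Top2a: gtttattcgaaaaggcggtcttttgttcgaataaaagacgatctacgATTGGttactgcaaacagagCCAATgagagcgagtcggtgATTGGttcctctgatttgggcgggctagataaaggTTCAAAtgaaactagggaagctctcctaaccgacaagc
Cenpf: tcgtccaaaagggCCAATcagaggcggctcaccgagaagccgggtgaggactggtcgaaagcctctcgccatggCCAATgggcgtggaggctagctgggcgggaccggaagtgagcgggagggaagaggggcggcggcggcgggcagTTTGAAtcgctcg
Aspm: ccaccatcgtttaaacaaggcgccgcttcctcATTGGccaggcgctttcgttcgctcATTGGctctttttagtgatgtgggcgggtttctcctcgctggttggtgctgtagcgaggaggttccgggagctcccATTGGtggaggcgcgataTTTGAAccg
In RefSeq windows of 300 bases (250 before to 50 after the start), TTTGAA was present on one strand or the other in 8 of the 9 rule genes matched. Tpx2 is the rule gene that was not matched. The element was present in 40 of 65 matched genes of the mitotic lists (61.5%), in 7 of 45 of the S-phase lists (15.6%) and in 4893 of 27025 windows of all genes (18.1%). CCAAT was present in 7 of the 9 rule genes and in 37.9% of all windows. A match of letters is a description and not a bound site.

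The members were chosen by the counts of the rule genes, so the levels of the 4 marker genes describe the members and test nothing. Mki67 was held by 45 of 88 members in WT with 54 UMIs, by 5 of 7 in KO with 6 UMIs and by 67 of 108 in KO_PBS with 109 UMIs. Its summed level was 178 CPM in WT members against 18.6 in the other barcodes that met the gene and mitochondrial limits (the other barcodes from here on), 348 against 30.1 in KO_PBS, and 395.5 against 55.2 in KO. Top2a was the rule gene with the most UMIs in members of every library: 199 UMIs in 79 members of WT, 16 in 7 of KO and 254 in 96 of KO_PBS. Its levels were 657, 1055 and 811 CPM in that order, against 79.1, 134 and 107 in the other barcodes. Cenpf was at 291 CPM in WT members, 593 in KO and 370 in KO_PBS, against 26.2, 38.3 and 19.2 in the others. Aspm was at 66.1 CPM in WT members with 1 UMI in each of 20 members, at 65.9 in KO with 1 UMI in all, and at 214 in KO_PBS, with 67 UMIs in 44 members. All 4 markers were thus present in every library, Aspm in KO by a single UMI.

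**Figure D1:**
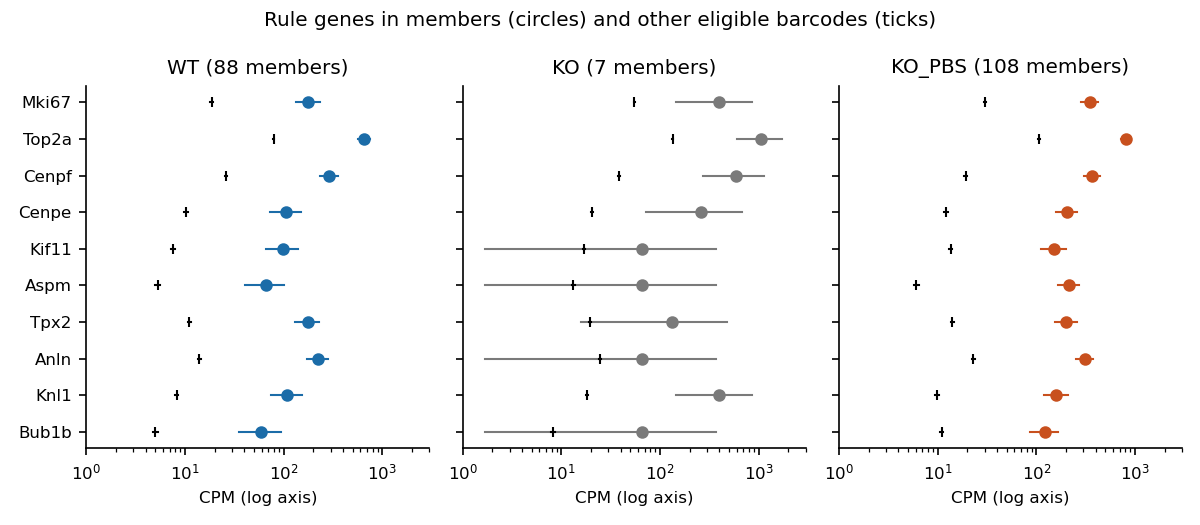
Level of each of the 10 rule genes, in CPM on a log axis, in members (circles, with 95% Poisson intervals) and other eligible barcodes (ticks), 1 panel per library with 88, 7 and 108 members in WT, KO and KO_PBS. The rule chose the members on these genes; Top2a has the most UMIs among them in every library.

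Single members held few of these UMIs. The median member had 6 rule-gene UMIs in WT (range 4 to 19), 5 in KO (4 to 12) and 7 in KO_PBS (4 to 29). The most rule genes in 1 barcode were 8, 6 and 9. In all, 56 of 88 WT members, 5 of 7 KO members and 53 of 108 KO_PBS members held exactly 4 rule genes, the fewest allowed, while 11, 1 and 32 held 6 or more. Just inside the limit, at 8 to 9 times the library share, lay 28, 5 and 24 barcodes, and just outside it, at 7 to 8 times, lay 25, 12 and 27, so the limit falls in no gap. Members held 1.23% of all rule-gene UMIs of WT, 0.0382% of KO and 2.02% of KO_PBS. The rest was spread over the other barcodes, of which 17.2%, 33.6% and 14.9% had a Top2a UMI. How many members reached the limit by sampling of these spread counts was not tested. Beyond the doublet caller, it was not tested whether each barcode holds 1 nucleus.

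Members made up 0.0911% of the eligible barcodes of WT (0.0731 to 0.112, exact binomial), 0.00654% of KO (0.00263 to 0.0135) and 0.0965% of KO_PBS (0.0792 to 0.117). The low share in KO went with a higher bar. Rule genes were at 349 CPM over all KO barcodes, against 187 in WT, so that a KO barcode had to reach 2792 CPM, a WT barcode 1499 and a KO_PBS barcode 2000. At the median depth of the other barcodes, which was 2261 UMIs for WT, 2980.5 for KO and 1445 for KO_PBS, the share alone took 8.32 rule-gene UMIs in KO and 3.39 and 2.89 in WT and KO_PBS, where the 4 required genes set the minimum at 4 UMIs. With the mean share of the 3 libraries as a common bar, the members were 26 in WT, 75 in KO and 96 in KO_PBS (0.0269%, 0.0701% and 0.0858%). With each barcode thinned to 1000 UMIs and shallower ones left out, 5 of 96328, 25 of 106812 and 24 of 98080 barcodes met the rule (0.00519%, 0.0234% and 0.0245%). The order of the libraries therefore depended on the bar, and no change in the number of dividing cells is read from these shares.

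Beyond the rule genes, 149 other genes of the cell cycle in 9 lists were higher in sum in the members. Their summed level was 2.80 times that of the other barcodes in WT (2.67 to 2.93), 1.60 times in KO (1.25 to 2.00) and 3.06 times in KO_PBS (2.94 to 3.19). Against other barcodes in the middle range of the members' depth the ratios were 2.81, 1.63 and 3.03. Barcodes with at least 4 rule genes at 4 to 8 times the library share lay lower, at 1.98, 1.32 and 2.22. By barcode, 62 of 88 WT members, 4 of 7 KO members and 83 of 108 KO_PBS members lay above the 90th percentile of the other barcodes for these genes. These genes were counted in the same barcodes as the rule genes, so this is a description of the members and no independent test.

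In WT and KO_PBS the excess lay mainly in the lists of G2 and mitosis. In WT, genes of the spindle, kinesins and cytokinesis were at 4.25 times the level of the other barcodes, those of the anaphase-promoting complex at 3.93, cyclins and their kinases at 3.89, mitotic kinases at 3.69, and both the kinetochore and condensin lists at 3.31. In KO_PBS the same lists were at 5.32, 2.46, 3.57, 4.48, 4.01 and 3.68 times. The S-phase lists lay closer to the other barcodes: replication licensing was at 1.41 in WT and 1.31 in KO_PBS, nucleotide supply at 1.93 and 1.56, and S-phase repair at 1.65 and 2.22. For the sums, all cell cycle lists other than the S-phase ones were counted as G2 and mitosis. They include Ccne1 and E2f1, which act at the entry into S phase. On this count more G2 and mitosis UMIs than S-phase UMIs were held by 75 of 88 WT members, 6 of 7 KO members and 94 of 108 KO_PBS members. The share of other barcodes with such an excess was not counted, though in sum it was present there too. In sum the G2 and mitosis lists were at 4620, 3374 and 5905 CPM in members of WT, KO and KO_PBS and the S-phase lists at 1525, 1522 and 1646, while in the other barcodes they were at 1227, 1726 and 1434 and at 971, 1341 and 1030. All 10 rule genes belong to G2 and mitosis, so the rule favours barcodes of that stage. In KO the 7 members held 22 UMIs of the spindle list, 3.08 times the level of the others (1.93 to 4.66), 12 of S-phase repair (2.14 times, 1.10 to 3.73), 11 of replication licensing (0.964 times, 0.481 to 1.73) and 0 of nucleotide supply, where up to 1.14 times the level of the others is allowed by the interval. The other KO lists, with 3 to 10 UMIs, were at 2.35 times for condensin, 1.68 for mitotic kinases, 1.59 for the kinetochore, 1.31 for cyclins and 0.977 for the anaphase-promoting complex, each with an interval that spanned 1.

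**Figure D2:**
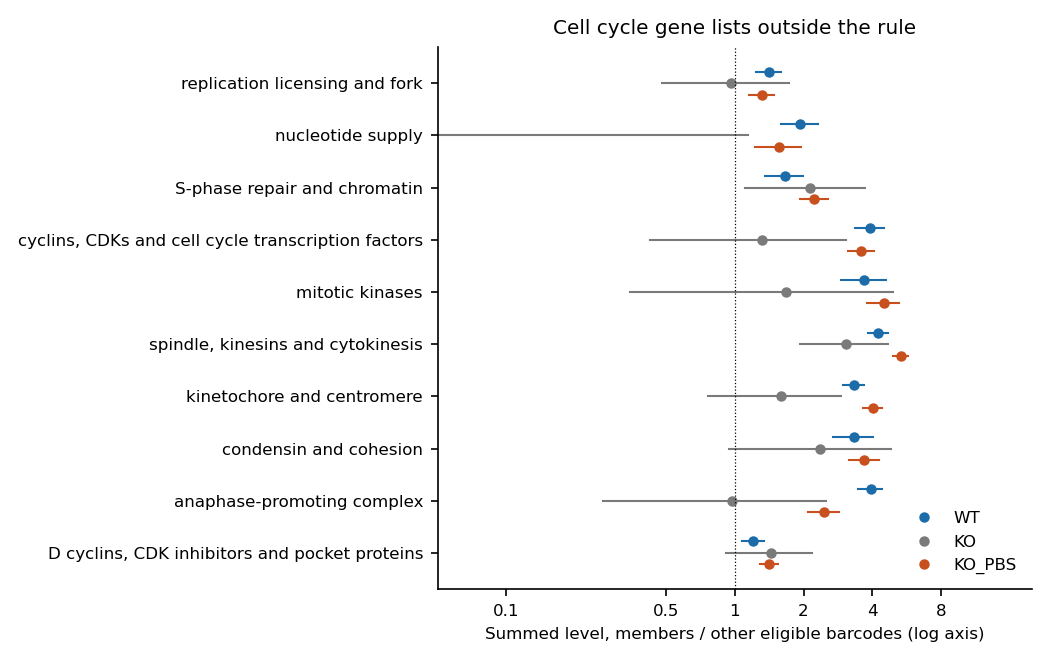
Ratio of the summed level of each cell cycle list in members to that in other eligible barcodes, on a log axis with 95% counting intervals, by library. Spindle genes lie at 4.25 in WT, 3.08 in KO and 5.32 in KO_PBS, while replication licensing lies at 1.41, 0.964 and 1.31.

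Single genes were called higher or lower by size: a ratio of at least 2, with counts below 3 UMIs set to 3, intervals that did not overlap, and at least 10 UMIs observed or expected in the members. In WT, 49 of the 59 listed cell cycle genes that met this minimum were higher and 0 lower, against 4.04% of all 4235 genes higher and 0.921% lower. In KO_PBS 67 of 82 were higher and 0 lower, against 10.8% and 1.74% of 6968 genes. In KO none of the 149 reached the minimum, and of 218 genes that did, 3.21% were higher and 3.67% lower. A gene could meet that minimum through the members alone. Among genes with at least 3 UMIs expected from the other barcodes, 36 of 66 listed genes were higher and 0 lower in WT, against 2.12% and 0.779% of 7832 genes. In KO_PBS 46 of 81 were higher and 0 lower, against 6.58% and 1.51% of 10952 genes. In KO no listed gene had 3 expected UMIs, and of the 638 genes that had, 1.88% were higher and 2.04% lower. The 36 genes called higher in both WT and KO_PBS under the first rule were 73.5% of those of WT and 53.7% of those of KO_PBS, where the 59 genes of any kind called higher in both were 34.5% and 7.87%. The 59 include these 36. Under that rule genes such as Cdk1 entered through the members. Cdk1 had 6.36 UMIs expected in WT and 6.90 in KO_PBS, where 10 were asked. The overlap therefore lends no support. Of the genes named below, Foxm1, Aurka, Aurkb, Ect2 and Dbf4 in both libraries, and Brip1 and Dlgap5 in KO_PBS and Cdkn2c in WT, had under 3 expected UMIs and met the minimum only through the members, so that their calls lend no support.

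Among regulators, the mitotic kinase Cdk1 was at 123 CPM in WT members against 21.1 in the other barcodes, and at 80.2 against 22.2 in KO_PBS, while the 7 KO members held 0 UMIs of it. Its partners Ccnb1 and Ccnb2 were at 7.13 and 5.81 times the level of the others in WT and at 3.90 and 4.16 times in KO_PBS. The transcription factor Foxm1, which drives the genes of G2 and mitosis, was at 33.1 against 3.61 CPM in WT with 10 UMIs, and at 51.3 against 5.91 in KO_PBS with 16 UMIs. Cdk1, Ccnb1 and Ccnb2 were called higher in both libraries also with at least 3 expected UMIs. Of the kinases that run mitosis, Aurka, which matures the spindle poles, was at 7.34 times the level of the others in WT and 4.06 times in KO_PBS, and Aurkb, which corrects chromosome attachment, at 4.21 and 6.61 times. Plk1 was called higher in KO_PBS, at 77.0 against 14.9 CPM, and with 8 UMIs it did not meet the minimum in WT.

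Among the 9 cell cycle lists, that of the spindle and cytokinesis had the most UMIs in members of every library. Prc1, which bundles the microtubules of the central spindle, gave 75 UMIs in WT members (249 against 33.6 CPM), 48 in KO_PBS (154 against 21.8) and 2 in KO. Nusap1, a spindle-binding protein, gave 68, 56 and 4 UMIs, at 6.13 times the level of the others in WT and 5.10 times in KO_PBS. Ect2, which starts the cleavage furrow, was at 5.86 and 12.4 times, and the formin Diaph3 at 3.17 and 8.01 times. The kinesin Kif20b was called higher in KO_PBS alone, at 125 against 11.7 CPM, where WT had 7 UMIs and too few to be called. At the kinetochore and centromere, Cenpa, the centromeric histone, was at 5.25 times the others in WT and 5.52 times in KO_PBS, and Birc5 of the passenger complex at 3.72 and 3.80 times. Ube2c, the ubiquitin-conjugating enzyme of the anaphase-promoting complex, gave 116 UMIs in WT members, at 384 against 60.7 CPM, and 61 in KO_PBS, at 196 against 49.9. Cdc20, which activates that complex, was at 6.25 and 3.13 times.

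Of the S-phase genes that met the minimum, 3 of 10 for replication licensing, 4 of 5 for nucleotide supply and 1 of 2 for S-phase repair were called higher in WT, and 2 of 10, 1 of 3 and 6 of 9 in KO_PBS, against 4.04% and 10.8% of all genes. With at least 3 expected UMIs these were 2 of 18, 4 of 6 and 2 of 8 in WT and 1 of 21, 1 of 6 and 5 of 9 in KO_PBS, against 2.12% and 6.58%. The 6 repair and chromatin genes of KO_PBS were Brca1, Brip1, Blm, Uhrf1, Atad2 and Mms22l, of which Brip1, a helicase of DNA repair, was at 44.9 against 9.26 CPM. Dbf4, which activates the replication kinase Cdc7, was at 66.3 against 7.97 CPM in WT and 35.3 against 9.40 in KO_PBS, and Rrm1 of ribonucleotide reductase at 2.19 times the level of the others in both. Rrm2, Tyms and Tk1, which supply nucleotides, were called higher in WT at 2.81, 2.21 and 3.93 times. In KO_PBS, Rrm2 was at 1.69 times and was not called, and Tyms and Tk1 had 6 and 9 UMIs and did not meet the minimum. The list of D cyclins with their kinases, which drive cells through G1, and of the CDK inhibitors and pocket proteins that hold them there was at 1.20 times the level of the others in WT (1.08 to 1.34), 1.45 in KO (0.918 to 2.17) and 1.41 in KO_PBS (1.29 to 1.54). The inhibitors Cdkn2c and Cdkn2d were called higher in both WT and KO_PBS, at 33.1 against 8.48 and 66.3 against 17.8 CPM in WT and at 61.0 against 15.0 and 80.2 against 25.1 in KO_PBS. In KO_PBS Cdkn1b, Rb1 and Rbl1 were also called higher, at 2.05, 2.21 and 3.47 times. Against other barcodes of matched depth they were at 1.85, 1.85 and 3.13 times. In KO Ccnd2 was called higher, at 2.91 times from 10 UMIs. Apart from Cdkn2c in WT, with 2.56, these genes had at least 3 expected UMIs in those libraries. In WT 1 of 13 genes of that list was higher with at least 3 expected UMIs.

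Cell cycle genes with TTTGAA in the RefSeq window, as in the promoters printed above, were at 4.03 times the level of the other barcodes in WT (3.76 to 4.32), 2.09 in KO and 3.94 in KO_PBS (3.71 to 4.19). Those without it were at 2.24, 1.19 and 2.36 times. Since the element is mostly found in mitotic genes, the mitotic lists were also split alone. With and without the element they were at 4.23 and 3.23 times in WT, 4.30 and 3.85 in KO_PBS and 2.47 and 1.49 in KO. The KO values rest on 28 and 12 mitotic UMIs. In the S-phase lists, genes with and without the element were at 2.02 and 1.58 times in WT, 1.56 and 1.60 in KO_PBS and, with 1 and 17 UMIs, 0.470 and 1.11 in KO.

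Outside the 9 cell cycle lists, 23 genes were called higher in both WT and KO_PBS, Cdkn2c and Cdkn2d among them. Among the genes with the largest smaller ratio of these libraries, Dlgap5, a spindle protein, was at 4.55 times the level of the others in WT and 9.18 in KO_PBS. Cenpc1 of the kinetochore was at 3.86 and 3.87 times, Cks2, which binds cyclin-dependent kinases, at 3.42 and 3.85, and Pttg1, the securin, at 3.45 and 2.22. Over all 3 libraries the rule for named genes gave Ptma, Pabpc1, H3f3b, Txn1, Ahnak, Tkt, Rack1, Trpm3, Ppia, Malat1, Calml3 and Actb, abundant genes for the most part. Ptma, a chromatin-linked protein of growing cells, was at 2.25 times the level of the others in WT, where it was called higher, and at 1.87 and 1.28 in KO and KO_PBS, where it was not called. Trpm3, a cation channel, was called higher in KO (3.07 times) and KO_PBS (2.11 times) and was at 0.849 times in WT. Against other barcodes of matched depth it was at 1.59 times in KO_PBS, below the 2-fold limit.

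Members held UMIs of both epithelial lists in every library. The list of basal and limbal epithelium was at 1.13 times the level of the others in WT (1.09 to 1.16), 0.826 times in KO (0.695 to 0.975) and 1.60 times in KO_PBS (1.53 to 1.67). The list of differentiated corneal epithelium was at 0.828 (0.811 to 0.846), 0.833 (0.742 to 0.932) and 1.12 times (1.09 to 1.15). A basal share above that of the library was found in 41 of 88 WT members, 1 of 7 KO members and 79 of 108 KO_PBS members, against 44.8%, 46.0% and 46.8% of the other barcodes. These ratios are to references that differ: the basal list was at 12876 CPM in the other barcodes of WT, 11207 in KO and 4437 in KO_PBS, and at 14507, 9262 and 7092 CPM in the members. The members of KO_PBS thus had the highest ratio and the lowest level.

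**Figure D3:**
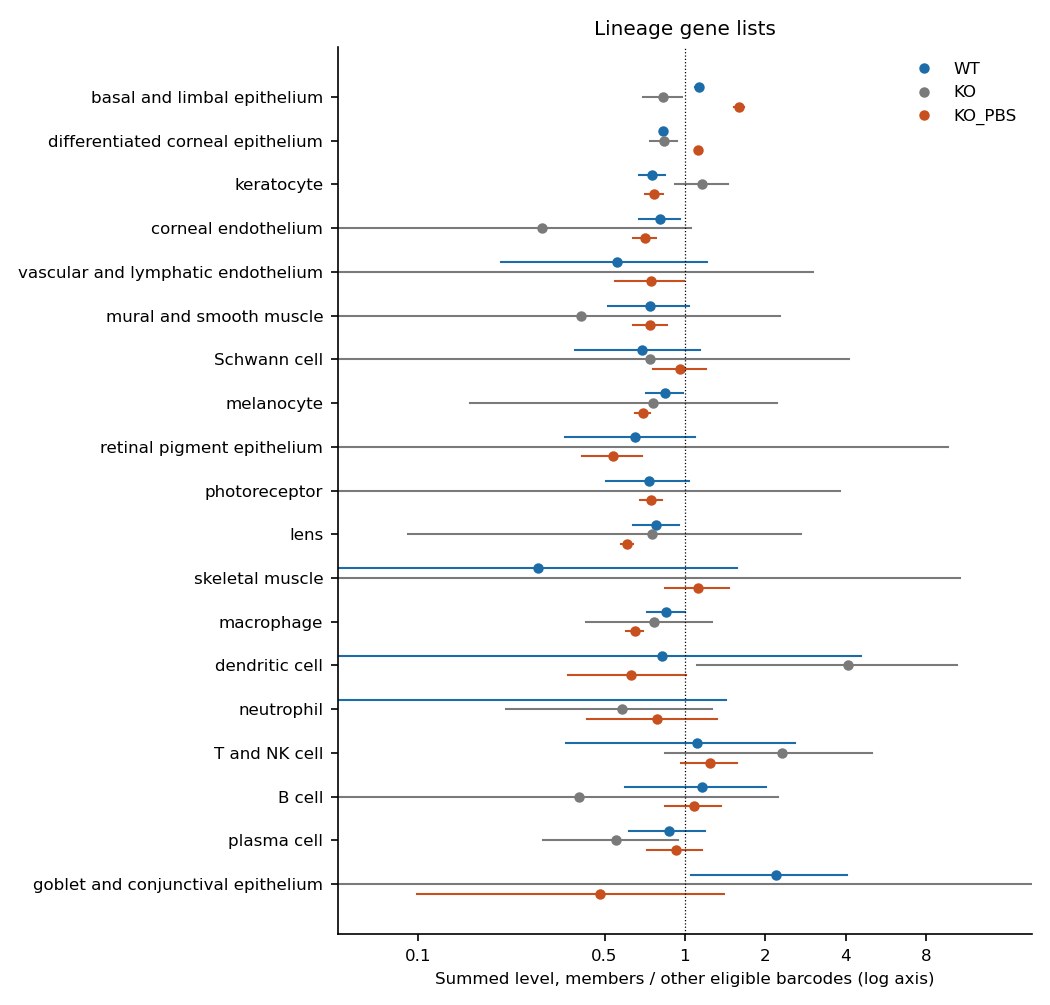
Ratio of the summed level of each lineage list in members to that in other eligible barcodes, on a log axis with 95% counting intervals, by library; lists with 0 UMIs in members have a line and no point, and lines that reach an edge go beyond it. The basal and limbal list lies at 1.13 in WT, 0.826 in KO and 1.60 in KO_PBS, and the keratocyte list at 0.755, 1.16 and 0.765.

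The lists of other cell types were mostly at or below the level of the other barcodes. The keratocyte list, the stromal cells of the cornea, was at 0.755 times in WT (0.673 to 0.844) and 0.765 in KO_PBS (0.708 to 0.826), with an interval spanning 1 in KO (1.16, 0.920 to 1.45). Kera, the keratocan of keratocytes, gave 5 UMIs in WT members where 14.6 were expected and was called lower there. The corneal endothelium list was at 0.806 in WT and 0.706 in KO_PBS, with 2 UMIs in KO. In KO_PBS the lens list was at 0.606 (0.575 to 0.639), the macrophage list at 0.649 (0.602 to 0.699) and the melanocyte list at 0.695 (0.652 to 0.741), and in WT these lists were at 0.782, 0.853 and 0.842. A single gene of the macrophage list, the lipid carrier Apoe, gave 524 of its 708 UMIs in KO_PBS members. In the other KO_PBS barcodes Apoe made up 2728 of 3498 CPM, so this ratio is largely that of Apoe. The T and NK cell list was at 1.11 times in WT, 2.30 in KO with 6 UMIs (0.845 to 5.01) and 1.24 in KO_PBS with 72 UMIs (0.970 to 1.56). The exceptions with an interval above 1 rested on few UMIs: the goblet and conjunctival list in WT, at 2.20 times from 10 UMIs (1.05 to 4.04), and the dendritic cell list in KO, at 4.09 times from 4 UMIs (1.11 to 10.5).

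In WT and KO_PBS the basal list stood highest in the members with at least 6 rule genes. The number of rule genes and the depth went together: members with 4, 5 and at least 6 rule genes had median UMIs of 2623.5, 3656 and 5693 in WT and 1870, 3307 and 4013 in KO_PBS. In WT the basal list was at 1.04, 1.02 and 1.49 times the level of the others in these classes (1.40 to 1.57 for the last), and the differentiated list at 0.863, 0.941 and 0.596 (0.563 to 0.629 for the last). In KO_PBS the basal list was at 1.37, 1.54 and 1.82 times (1.71 to 1.94), while the differentiated list stayed at 1.12, 1.02 and 1.18. In KO the 1 member with 6 rule genes was at 0.778 times for the basal list (0.493 to 1.17) and 0.661 for the differentiated list (0.477 to 0.894). The keratocyte list was at 0.420 times in the WT members with at least 6 rule genes and at 0.713 in those of KO_PBS.

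Barcode by barcode, 10 of the 11 WT members with at least 6 rule genes had a basal share above that of the library, with a median of 1.54 times (0.787 to 1.91), and 0 of 11 had a differentiated share above it. Among the 21020 other WT barcodes in the same range of UMIs (2982 to 7048), 47.3% lay above the library for the basal list and 53.9% for the differentiated list. Their 90th percentile for the basal list was 1.29. The WT ratio of the basal list was 1.44 to 1.56 with any 1 of the 11 left out. In KO_PBS, 28 of 32 such members lay above the library for the basal list, with a median of 1.80 times (0.526 to 2.81), and 18 of 32 for the differentiated list. Among 54030 other KO_PBS barcodes in the range of these members (1466 to 7769 UMIs) the shares were 42.5% and 43.8%, with a 90th percentile of 1.49 for the basal list. Within these ranges the depth of the other barcodes was not matched to that of the members. Leaving out any 1 of the 32 gave 1.79 to 1.85. Relative to their own library, the WT members with the most rule genes were therefore high in basal and low in differentiated genes, and those of KO_PBS were high in basal genes. The levels themselves went both ways within these lists. They were lower in KO_PBS for Krt5 (3446 CPM against 8487 in WT), Krt12 (8146 against 14361), Krt14 (1100 against 2953) and Krt15 (217 against 5712), among others. They were higher there for Trp63 (519 against 48.7), Col17a1 (1239 against 584), Lama3 (410 against 130), Itga6 (310 against 64.9) and Aldh3a1 (7736 against 3846), among others. The difference between the libraries was not tested.

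**Figure D4:**
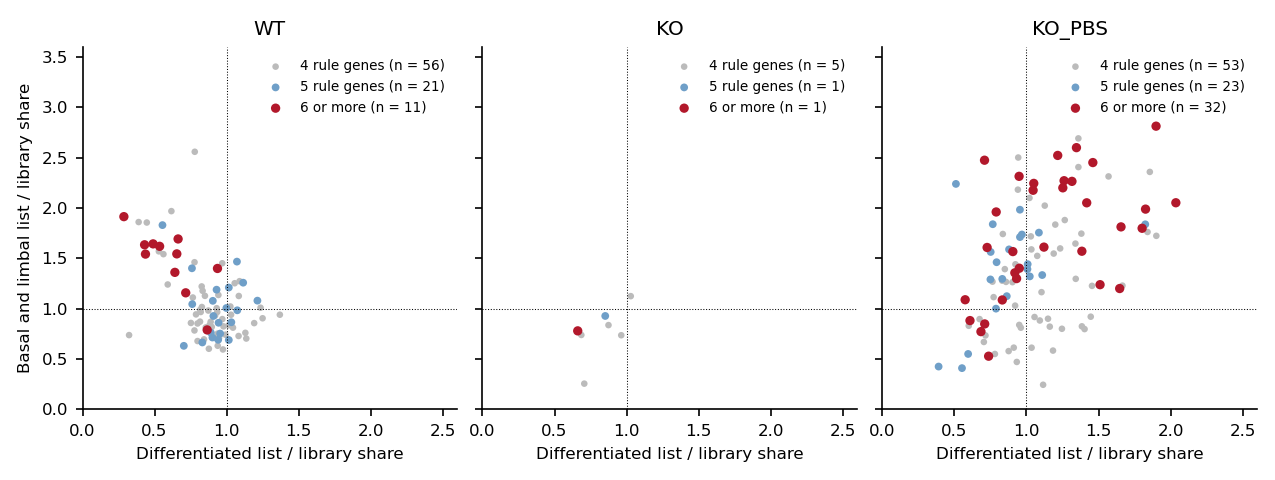
Share of the basal and limbal list (vertical axis) against that of the differentiated list (horizontal axis) in each member, each divided by the share of the library, coloured by 4, 5 or at least 6 rule genes. In WT all 11 of these lie left of 1 on the horizontal axis, and in KO_PBS 28 of 32 lie above 1 on the vertical axis.

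The basal genes behind these sums are given for each library, and differences between the libraries were not tested. In the 11 WT members with at least 6 rule genes, Krt14, a keratin of basal cells, gave 182 UMIs, present in 11 of 11 with at most 35 in 1 barcode, at 4.86 times the level of the other barcodes. Krt15, a keratin of limbal and basal cells, gave 352 UMIs at 2.66 times, and Gpha2, a limbal gene, gave 40 UMIs in 10 of 11 at 3.45 times. Krt5 was at 0.961 times and Trp63, the transcription factor of stratified epithelia, at 0.550 with 3 UMIs. Of the hemidesmosome and laminin genes, Lamb3 was at 4.41 times with 5 UMIs, Itgb4 at 1.94 with 13, Dst at 1.65 with 14 and Col17a1 at 1.13 with 36, while Lama3 was at 0.850 and Itga6 had 4 UMIs. Of the differentiated list, Krt12 and Aldh3a1 were at 0.550 and 0.667 times, and Klf5, Krt4, Pax6 and Krt13 at 1.85, 1.57, 1.03 and 1.02.

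In the 32 KO_PBS members with at least 6 rule genes, Trp63 gave 67 UMIs in 22 of 32, at 5.54 times the level of the others. The laminin chain Lama3 was at 5.02 times, and the hemidesmosome genes Itga6, Col17a1, Itgb4 and Dst at 3.97, 3.38, 3.03 and 2.47 times. Krt5 was at 1.60 times, whereas Krt15 and Gpha2 lay below the others, at 0.467 and 0.449. Of the differentiated list, Ehf, an epithelial transcription factor, was at 2.99 times, the adherens junction gene Cdh1 at 2.89 and the desmosome gene Dsp at 2.49. Pax6 was at 1.52 times, Krt12 at 1.31, Krt4 at 1.09 and Aldh3a1 at 1.00, while Klf5 was at 0.927, Elf3 at 0.836, Muc4 at 0.684 and Krt13 at 0.575. Krt14 was at 1.53 times and Lamb3 at 1.58 with 6 UMIs.

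**Figure D5:**
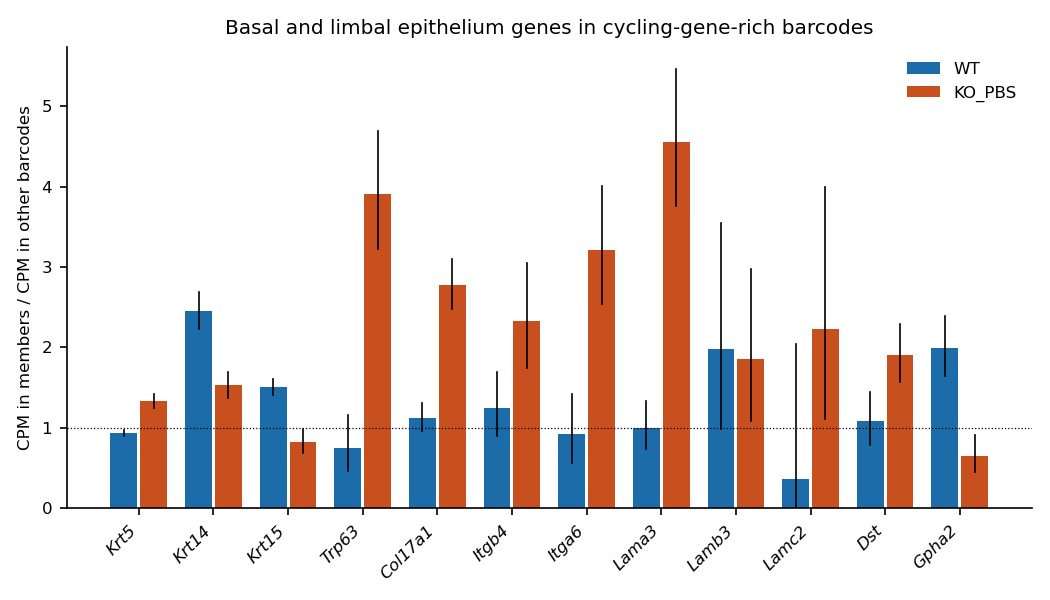
Level of each basal and limbal gene in members divided by that in other eligible barcodes, in WT and KO_PBS (bars from 0, with lines for 95% counting intervals). Krt14 lies at 2.45 in WT and 1.53 in KO_PBS, and Trp63 at 0.749 in WT and 3.91 in KO_PBS.

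Over all members, 1 of the 11 basal genes that met the minimum was called higher in WT, namely Krt14 at 2.45 times, 0 of 4 in KO, and 6 of 12 in KO_PBS, against 4.04%, 3.21% and 10.8% of all genes. Gene length moved with these calls. In KO_PBS the genes called higher had a median span of 63.5 kb, against 33.0 kb for those that met the minimum, and in WT 15.2 against 23.2 kb. Trp63, Lama3 and Itga6 span 208340, 249195 and 112801 bases, and Krt5, Krt15 and Gpha2 5829, 4171 and 1389. The nuclear RNA Malat1 made up a median 1.14% of the UMIs of KO_PBS members against 0.654% of the others, and ribosomal protein genes 9.71% against 12.8%, while in WT these were 0.793% against 0.913% and 19.8% against 19.1%. Against other barcodes of matched depth, Malat1 in KO_PBS members was at 1.09 times, from 1.51 against all others, and the basal list at 1.68 times. The part of gene length in the results for KO_PBS was not tested.

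A lineage list was taken as carried when a barcode held at least 3 of its genes at 3 times their share in the library, over 19 lists. By this rule 10 of 88 WT members carried at least 1 list, against 15.6% of the other barcodes (15.9% of those in the middle range of the members' depth), 1 of 7 KO members against 17.3% (11.9%), and 18 of 108 KO_PBS members against 10.4% (18.9%). Most members thus carried no list by this rule. For both epithelial lists its limit of 3 times the library share lay far above most barcodes. In the UMI range of the members with at least 6 rule genes, the other barcodes had 90th percentiles well below it. These were 1.29 for the basal and 1.22 for the differentiated list in WT, and 1.49 and 1.27 in KO_PBS. The count therefore does not tell which epithelial cells the members resemble. In WT the carried lists were lens in 4 members, melanocyte in 3, where the pigment gene Dct gave 17 UMIs, keratocyte in 2, where the matrix gene Dcn gave 20, corneal endothelium in 2 and photoreceptor in 1. The shares of other barcodes that carried each of these lists are not given here. No excess in members is therefore read from these counts, and for any list the WT members lay below the other barcodes.

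Immune lists were carried in the knockout libraries. The T and NK cell list was carried by 6 KO_PBS members, 5.56% (2.07 to 11.7), against 0.658% of the other barcodes and 1.59% of those of matched depth. In WT 0 of 88 members carried it (0 to 4.11%), against 0.0135% of the other WT barcodes, and the difference between the libraries was not tested. They held 7 UMIs of Skap1, a T cell adaptor, in 5 members, 4 of Bcl11b, a T cell transcription factor, 3 of Cd3e of the T cell receptor complex in 3 members, and 3 of the kinase Lck. The B cell and plasma cell lists were carried by 3 of 108 KO_PBS members each, against 0.634% and 0.425% of the others, or 1.62% and 0.932% at matched depth. No gene of these lists gave more than 7 UMIs in its carriers. With so few carriers, no excess over barcodes of matched depth is read for these 2 lists. The single carrier in KO held 2 UMIs of Cd3d, 1 of Cd3e and 1 of Cd3g, and it was also the KO member with the most rule genes, 6. Among the other KO barcodes 2.08% carried the list, or 0.503% at matched depth. Of the 6 T and NK carriers in KO_PBS, 1 had basal and differentiated shares of 1.81 and 1.66 times the library, and the others had differentiated shares from 0.390 to 1.16. None of the T and NK carriers of either library was marked as a doublet, and whether they hold 1 nucleus was not tested otherwise. In KO_PBS single members also carried the basal, vascular, mural, Schwann, photoreceptor and skeletal muscle lists, the last with 17 UMIs of Ttn. The shares of other barcodes carrying these lists are not given here, and no excess is read from single members.

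Between libraries, most genes called in the members had the same sign in the other barcodes. For a pair of libraries a gene was called when it met the same size rule with at least 50 UMIs over both. In KO members against WT members, 25 genes were higher (3.31% of 755) and 48 lower (6.36%), and all 25 and 48 had the same sign in the other barcodes, where 16 and 16 also differed by 2-fold. Of the interferon and antigen presentation list, 4 of 5 genes tested were higher in KO: B2m, the light chain of MHC class I, at 1786 against 149 CPM, Cd74, the MHC class II invariant chain, at 1588 against 136, and the class I genes H2-K1 and H2-D1. Against the other barcodes of its own library this list was at 1.08 times in WT (0.989 to 1.18), 0.995 in KO (0.857 to 1.15) and 0.813 in KO_PBS (0.783 to 0.843), and in WT 2 of its 12 genes that met the minimum were called higher in members, Cd74 at 2.06 and H2-Ab1 at 2.03 times, where 4.04% of all genes were. Cell type lists also differed between KO and WT members. The keratocyte list was at 5226 against 1021 CPM (4500 against 1352 in the others), with 3 of 3 genes tested called higher. The plasma cell list, with 13 UMIs in KO and 39 in WT, was at a log2 difference of 2.73 (3.40 in the others). The T and NK cell list was at 4.58 (3.52 in the others), from 6 UMIs in KO and 5 in WT. Most of those in KO came from the single carrier. The basal list was at 9262 against 14507 CPM, with 1 of 6 genes lower. The genes with the largest ratio relative to the others included Trpm3, Ccnd2, Hsp90aa1 and Ctnna1 on the higher side. Ccnd2, a D cyclin, was at 662 CPM in KO members from 10 UMIs, against 159 in WT.

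In KO_PBS members against KO members, 28 genes were higher (2.43% of 1150) and 46 lower (4.00%), and 28 and 44 of these had the same sign in the other barcodes, with 23 and 23 at 2-fold. Relative to the other barcodes, Xist, the RNA of X inactivation, stood highest at 1309 against 331 CPM (476 against 352 in the others). The tubulin Tubb5 followed at 815 against 66.2 (503 against 279), with the lipid carrier Apoe at 1682 against 132 (2728 against 564), Rpl23a and S100a10. In the KO members these rested on 5 UMIs of Xist, 1 of Tubb5, 2 of Apoe, 3 of Rpl23a and 8 of S100a10. With counts below 3 set to 3, the log2 difference was 2.04 for Tubb5 and 3.08 for Apoe. On the lower side stood Atp5j2, a subunit of ATP synthase, at 347 against 1191 CPM (585 against 647), Fdps of sterol synthesis at 167 against 728 (262 against 374), Pomp, Arpc2 and Rpl5. In KO_PBS against WT, 707 of 2099 genes were higher (33.7%) and 264 lower (12.6%), with the same sign in the others for 673 and 260 and a 2-fold difference there for 410 and 132. The median gene differed by 0.46 on the log2 scale in members and 0.26 in the others, and with ratios centred on the median gene 449 were higher and 483 lower. The interferon and antigen presentation list was at 8947 CPM in KO_PBS members against 1627 in WT members, a log2 difference of 2.46, and at a log2 difference of 2.87 in the other barcodes. Of its genes, 14 of 15 were called higher. Cell type lists shifted as well. The lens list was at a log2 difference of 3.67 (4.04 in the others), with 6 of 6 genes called higher. The photoreceptor list was at 3.69 (3.67) with 3 of 3, and the macrophage list at 2.19 (2.59) with 2 of 2. Most macrophage-list UMIs of KO_PBS members were of Apoe. The basal list was at -1.03 (-1.54) with 4 of 10 higher and 3 lower, and the differentiated list at -0.642 (-1.08). Links between these shifts were not tested.

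By the rule for named genes, Eda, Notch3, Trp63, Tnrc18 and Epb41l4a stood highest in KO_PBS members over WT members relative to the other barcodes. Trp63 was at 366 against 66.3 CPM, a log2 difference of 2.46 where the others differed by 0.08. Eda, an ectodermal ligand, was at 215 against 16.6 CPM (log2 3.70, others -0.32). Gpha2 was at 112 against 375 CPM (log2 -1.74, others -0.12), and Krt17, a keratin of stressed epithelium, at 70.6 against 189 (log2 -1.42, others 0.61). Wfdc18, Actr10 and Rpl22l1 were the other genes on the lower side.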

How the data were processed

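UMI counts of 10x 3' version 3 libraries were deposited by the authors as 1 matrix of whole numbers per library, not normalized. Per the file headers the counting tool was Cell Ranger 7.0.1, and per the submitters' processing notes the build was mm10. How intronic reads were counted and how barcodes were filtered is not given in the sources used here. The WT and KO files list 32285 genes and the KO_PBS file 31053, and comparisons used the 30406 Ensembl IDs in every file, of which 597 have another symbol in KO_PBS. The members, the gene lists and the comparisons were chosen with earlier results of these data known.

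UMIs were summed over members and over other eligible barcodes and scaled to a total of 1000000 (CPM). Poisson intervals for sums and Clopper-Pearson intervals for shares are exact. The size rule is no test, and no p-value is given. Doublets were sought with Scrublet in scanpy 1.11.5 at an expected rate of 0.06. Gene spans came from GENCODE M21 and promoter windows from RefSeq on GRCm38.p6. Other tools were python 3.11.15, numpy 2.4.6, scipy 1.17.1, pyarrow 21.0.0, anndata 0.12.19 and matplotlib 3.10.9.

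Genes named are those of the rule and lists. Outside the lists they are the 12 with the largest smallest ratio of members to others over the libraries, with at least 15 UMIs in the members of each, and per pair of libraries the 5 each way with the largest ratio relative to that of the other barcodes at 50 CPM or more. In members that carry a lineage list they are the genes of it with the most UMIs. The list over WT and KO_PBS, the comparison of KO_PBS with WT, the minimum of 3 expected UMIs, the depth-matched reference and the classes by number of rule genes were added after the data were seen. Some genes that these rules name are not reported here.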

Additional observations from a re-analysis of the deposited data

Results flagged for a closer look

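Genes with opposite calls in the members of WT and KO_PBS were looked for over all genes. Among 3878 genes that met the minimum in both, rule genes left out, 5 were found. Of all genes that met it, 4.04% were higher and 0.921% lower in WT, and 10.8% and 1.74% in KO_PBS. The 5 genes were singled out after their values were seen, and the difference between the libraries was not tested. Of these, 4 genes, written here as log2 ratios of members to other barcodes, were higher in KO_PBS and lower in WT: Eda, an ectodermal ligand gene, at 2.02 in KO_PBS and -2.00 in WT, Kansl1l at 1.35 and -1.26, Tnrc18 at 1.19 and -1.11, and Lcorl at 1.16 and -1.57. Hist1h1b, a linker histone gene made in S phase, was the reverse, at 1.84 in WT and -1.99 in KO_PBS.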

How the results depend on the processing

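Of 110 alternatives, 60 kept their value and 50 did not (shares and summed levels within the 95% counting interval, counts within 1.5 times), and for the latter the cause was not tested unless stated. Shares of eligible barcodes in WT, KO_PBS and, where it moved, KO were 0.259% and 0.223% with 3 rule genes, 0.0331%, 0.0492% and 0.00187% with 5, 0.256%, 0.188% and 0.494% at 4-fold, 0.00207%, 0.00894% and 0% at 16-fold, and 0.150% and 0.200% with at least 1000 genes. A mitochondrial limit of 1% gave 0.126% in KO_PBS. A common bar gave 0.0269% in WT and 0.0701% in KO, and thinning 0.00519%, 0.0245% and 0.0234%. Cell cycle genes called higher were 79 in WT and 4 in KO with no minimum of UMIs, and 26 in WT with members of at least 5 rule genes, whose summed level was 3.23 times that of the others in WT and 3.40 in KO_PBS. Members carrying any list were 17 in WT and 35 in KO_PBS with 2 list genes, 19, 49 and 2 in WT, KO_PBS and KO at 2-fold, 3 in WT at 5-fold, and 4 in WT with members of at least 5 rule genes.

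For KO against WT, 229 genes were higher with no minimum, 2 with members of at least 5 rule genes and 4 relative to the ratio in the other barcodes, and 17 were lower at 3-fold and 6 relative to the others. For KO_PBS against KO, 18 were higher at 3-fold, 8 with at least 5 rule genes and 15 relative to the others, and 111 were lower with no minimum, 20 at 3-fold and 10 relative to the others. For KO_PBS against WT, 2013 were higher with no minimum, 449 when centred, 440 at 3-fold, 301 with at least 5 rule genes and 186 relative to the others, and 483 were lower when centred, 90 at 3-fold and 28 relative to the others. Leaving marked doublets out was not run in WT, where none was marked. No paired analysis was possible because each group had 1 library. The 7 KO members held 15069 UMIs outside the rule genes, and differences of low genes were not detectable at this depth.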
